A study of Mus musculus with 29 samples.

Results

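Colonic gene expression after repeated dextran sodium sulphate (DSS) colitis and an additional recovery of 3 weeks was compared with that of mice that never received DSS. DSS is a polysaccharide that injures the colonic epithelium when it is given in the drinking water. The 5 recovery mice were chosen by their group label (2 cycles of DSS and then an additional recovery period of 3 weeks on normal drinking water) and the 5 control mice by theirs (normal drinking water throughout), which gave 10 of the 29 arrays of the series. A cycle was 7 days of DSS and 2 weeks of normal water, and the additional 3 weeks followed the whole of the last cycle. All mice were female C57BL6J with a labelled age of 6 weeks, so that no genetic model was involved. In the study 6 weeks was the age at the start of the experiment, and the mice were older when killed. In its methods the DSS concentration was lower in the first cycle than in the later ones. The controls are A1, A2, A5, L1 and L2 and the recovery mice are M1, M3, M5, N2 and N3, and values below are given in this order. The groups after 2 cycles (5 mice) and 3 cycles (5 mice) without the additional recovery were used to place the recovery mice. All 6 groups of the series entered the fit that gave the SEs and p-values.

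RNA came from 1 piece of the most infiltrated colon of each mouse, measured on 1 array. The values are log2 intensities of 35511 probe sets on the Affymetrix Mouse Gene 1.0 ST array, so that a difference of 1 is a doubling and levels of separate probe sets are not comparable. A probe set was called where limma's adjusted p (Benjamini-Hochberg over all probe sets) was under 0.05 and the change over 2-fold. As values for the labelled tissue, the 29 genes of absorptive colonocytes averaged 10.14 to 10.29 in controls. They averaged 9.70 or more in each recovery mouse, and all 5 recovery mice lay below the lowest control. Over both groups, 10 genes of small intestine and pancreas averaged 4.97 to 5.21 and 16 genes of skeletal muscle 5.45 to 5.80. Since levels are not comparable between probe sets, these averages describe the samples and do not test the label. In a piece of tissue, fewer cells of a type and less RNA per cell cannot be told apart. With 5 arrays a group, small differences cannot be resolved.

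The groups lay on opposite sides of a split of the arrays. One probe set without a gene name read 7.26 to 8.14 in the controls and 11.28 to 11.46 in the recovery mice, with no value between, and over the whole series it divided 14 low from 15 high arrays. No array set held both groups, so that the array set and the recovery cannot be told apart within these 10 mice. In the 2 cycles group it read low in 2 mice and high in 3, and in the acute group low in 2 and high in 2, so a fit of all groups could carry the array set as a term. Values from that fit are given below as "with the array set in the model". Only these 2 groups inform the term, so changes against controls are in general estimated less precisely with it. A call lost there does not by itself mean a smaller change. The part of the array set in the results was not tested further.

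Injury of the gut lining is normally answered by secreted antibacterial proteins from the epithelium, by interferon gamma from T cells, which raises antigen presentation on MHC class II, and by B cells that gather in follicles and mature into IgA-secreting plasma cells. The colon is lined by a single layer of columnar cells, absorptive colonocytes and mucus-secreting goblet cells, renewed from Lgr5-expressing stem cells at the crypt base. It meets a stratified squamous epithelium, which makes keratins 5 and 14 in its basal layer and keratins 4 and 13 above it, at the anus.

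Between the recovery mice and the controls, 382 probe sets were called higher (1.08% of those tested) and 200 lower (0.563%). Of the probe sets that carry 1 gene symbol, 279 were higher (1.28% of 21789), from 263 genes, and 52 were lower (0.239%), from 45 genes. The median change over all 1-symbol probe sets was near 0, with 49.7% positive. The values of the 5 recovery mice did not overlap those of the controls for 204 of the 279 and for 50 of the 52, where all 5 lay above every control for 7.37% and below every control for 7.23% of all 1-symbol probe sets. A call requires group means that are apart, so it favours probe sets without overlap, and these counts are no separate support. The rises were uneven among the mice. Of the 279, M1 exceeded every control in 279, M3 in 277, N2 in 275 and N3 in 264, but M5 in only 211, and M5 was the sole mouse within the control range for 55 of them. The falls were even: 50 to 52 of the 52 lay below every control in each mouse. Over all probe sets with 1 symbol, 24.0 to 33.0% lay above and 24.9 to 29.4% below every control, by mouse. With the array set in the model 71 probe sets were higher, 60 of them among the 382, and 10 were lower, 7 of them among the 200.

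**Figure D1:**
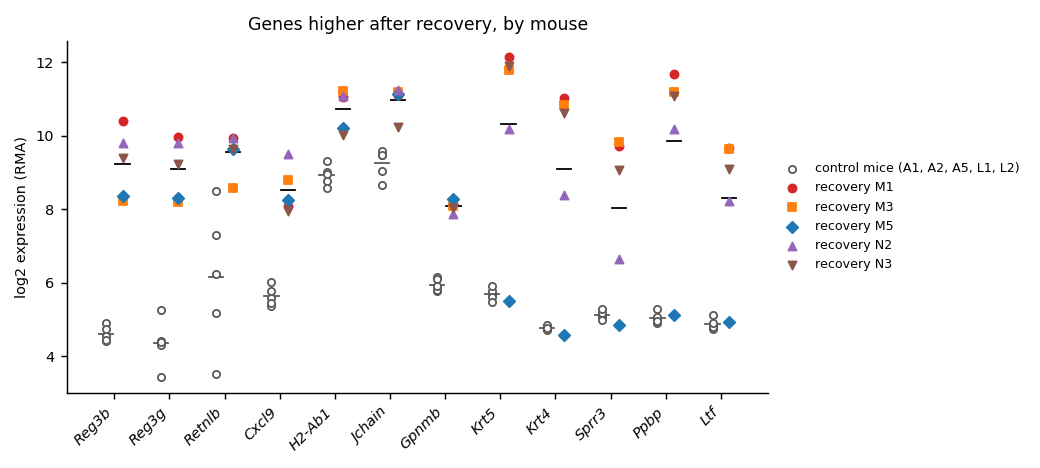
Log2 expression of genes that were higher after recovery, with 1 point per mouse, open circles for the 5 controls, a separate symbol for each recovery mouse and short lines for the group means. The recovery mice lie together above the controls for Reg3g and H2-Ab1, whereas for Krt5 and Ppbp M5 lies among the controls, at 5.52 and 5.12.

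The 2 largest rises without overlap between the groups were those of Reg3g and Reg3b, secreted antibacterial lectins. Reg3g, a C-type lectin that kills Gram-positive bacteria, was at 3.45, 5.25, 4.30, 4.43 and 4.38 in the controls and at 9.98, 8.21, 8.30, 9.80 and 9.22 in the recovery mice. The lowest recovery value was 8.21 and the highest control 5.25, and Reg3g rose by 4.74 ± 0.73 (log2, SE; adjusted p = 0.000198). Its neighbour in function, Reg3b, stood at 4.41, 4.91, 4.74, 4.55 and 4.46 in controls against 10.39, 8.23, 8.35, 9.80 and 9.40 after recovery (4.62 ± 0.79, adjusted p = 0.000548). For both genes the order of the mice was the same, M1 highest and M3 lowest. Both also passed with the array set in the model (adjusted p = 0.008 for Reg3g and 0.00937 for Reg3b).

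The promoters of this pair are shown because they moved together and carry the same element. The sequences are the RefSeq windows around the start on GRCm38.p6, on the strand of the gene, and capitals mark TATAAA, the core of the TATA box, on either strand. The element begins 29 bases before the start in Reg3b and 161 and 27 bases before it in Reg3g, and 13.6% of the promoters of 15614 genes hold it. Reg3b lies at chr6:78370635-78370934 on the plus strand and Reg3g at chr6:78468825-78469124 on the minus strand.
Reg3b: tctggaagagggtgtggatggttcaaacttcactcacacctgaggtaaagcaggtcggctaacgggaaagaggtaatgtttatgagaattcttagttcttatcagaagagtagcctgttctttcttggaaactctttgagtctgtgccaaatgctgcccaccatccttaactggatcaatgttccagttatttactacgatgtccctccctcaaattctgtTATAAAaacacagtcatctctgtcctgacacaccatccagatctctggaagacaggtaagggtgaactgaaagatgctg
Reg3g: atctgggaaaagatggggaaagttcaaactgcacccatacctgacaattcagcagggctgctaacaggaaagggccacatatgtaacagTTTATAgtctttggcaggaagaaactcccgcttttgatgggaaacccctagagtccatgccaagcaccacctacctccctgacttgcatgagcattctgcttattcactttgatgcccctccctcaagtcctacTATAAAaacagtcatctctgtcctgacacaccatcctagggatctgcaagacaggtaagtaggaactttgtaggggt

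Of the 24 antimicrobial defence genes, 12 were called higher and 2 lower, with a median change of 1.08. Besides Reg3b and Reg3g, Retnlb, a goblet cell protein against bacteria, was at 3.52, 7.29, 6.23, 8.51 and 5.19 in controls and at 9.95, 8.59, 9.64, 9.93 and 9.65 after recovery. The controls spanned more than the recovery mice did and the groups barely failed to meet, at 8.51 and 8.59 (3.40 ± 0.69, adjusted p = 0.00231). Nos2, which makes nitric oxide, was at 5.24 to 5.81 in controls and 6.63 to 7.94 after recovery (1.73 ± 0.44, adjusted p = 0.0117). Not every member followed. Lcn2, an iron-withholding protein of inflamed epithelium and neutrophils, read 5.86 to 6.18 in controls and 6.75, 7.19, 6.14, 7.10 and 6.21 after recovery (0.59 ± 0.48, adjusted p = 0.463), and S100a8 did not pass either (0.71 ± 0.44, adjusted p = 0.309). Saa1, an acute phase protein, fell in every recovery mouse, from 7.43, 6.97, 7.34, 6.53 and 6.87 to 6.22, 6.27, 5.72, 6.28 and 5.57 (-1.01 ± 0.22, adjusted p = 0.00386). Wfdc2, a protease inhibitor of secretory epithelium, was the other that fell (-1.13 ± 0.24, adjusted p = 0.00341). Only Reg3b and Reg3g of this list were called with the array set in the model, while the median of the list was 1.19.

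Interferon gamma targets were above the controls in all 5 mice. The chemokine Cxcl9, which draws T cells, was at 5.37, 6.02, 5.59, 5.44 and 5.79 in controls and 8.10, 8.81, 8.25, 9.50 and 7.96 after recovery (2.88 ± 0.49, adjusted p = 0.000537). Ido1, which breaks down tryptophan, was at 4.46 to 4.99 against 7.21, 7.06, 6.36, 8.38 and 6.43 (2.36 ± 0.48, adjusted p = 0.00209). N2 was the highest mouse for both, and for Iigp1, a GTPase against intracellular microbes (1.74 ± 0.44, adjusted p = 0.0104). In the list of 19 targets 19 were positive, 6 of them called, with a median of 0.84. The mean of the list was 6.31 to 6.47 in controls and 7.47, 7.56, 7.14, 7.88 and 7.07 in the recovery mice, with no overlap. The list's median was 0.75 with the array set in the model, but limma then called 0 of the 19, with Cxcl9 at 2.37 (adjusted p = 0.145) and Iigp1 at 1.67 (adjusted p = 0.295).

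Of 9 MHC class II genes 8 were called higher, with a median of 1.59. H2-Ab1, the beta chain of the I-A molecule, was at 9.02, 9.32, 8.77, 8.58 and 8.96 in controls and 11.06, 11.21, 10.22, 11.07 and 10.02 after recovery (1.79 ± 0.28, adjusted p = 0.000277). Its partner H2-Aa ran from 8.10 to 9.02 in controls and from 9.51 to 10.97 after recovery (1.74 ± 0.31, adjusted p = 0.000879). Cd74, the invariant chain that guards the peptide groove, averaged 9.56 ± 0.38 and 11.27 ± 0.51 (SD, n = 5 each; 1.71 ± 0.26, adjusted p = 0.000217). Ciita, the coactivator that switches these genes on, was called too (1.04). Within the recovery group the mice fell into a higher set, M1, M3 and N2, with list means of 9.16, 9.14 and 9.14, and a lower set, M5 and N3, with 8.10 and 7.95, all above the 6.77 to 7.52 of the controls. With the array set in the model H2-Ab1 was no longer called (1.35, adjusted p = 0.143) and the median of the list was 1.27.

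The class II promoters are shown for the Y box, the inverted CCAAT element that these genes are known to share. Capitals mark its core ATTGG on either strand, which 41.7% of all promoters hold. Of the 9 class II genes 6 had a promoter in the table, and 6 of these held the core. So did 10 of the 14 promoters of the interferon gamma list (71.4%). The core begins 48 bases before the start in H2-Aa (chr17:34287774-34288073, minus strand) and 59 and 35 bases before it in H2-Eb1 (chr17:34305617-34305916, plus strand). Psmb8, an immunoproteasome subunit of the same chromosome region (chr17:34197945-34198244, plus strand), is set beside them with TTCNNNGAA in capitals, the core of the gamma-activated site, where N is any base. That core begins 97 bases before its start, and 8.99% of all promoters and 13.1% of those of the called higher genes hold it. It was in 5 of the 14 promoters of the interferon gamma list, to which Psmb8 belongs, and in 0 of the 6 class II promoters. Psmb8 was at 6.15 to 6.48 in controls and 7.12 to 7.96 after recovery (1.34 ± 0.27, adjusted p = 0.00190). These matches describe letters in the window and were not tested as sites.
H2-Aa: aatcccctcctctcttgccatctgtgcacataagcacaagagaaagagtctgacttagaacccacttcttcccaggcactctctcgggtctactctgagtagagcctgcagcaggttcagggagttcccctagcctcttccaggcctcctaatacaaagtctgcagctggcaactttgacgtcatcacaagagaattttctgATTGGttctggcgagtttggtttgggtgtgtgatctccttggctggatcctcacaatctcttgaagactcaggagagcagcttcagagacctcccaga
H2-Eb1: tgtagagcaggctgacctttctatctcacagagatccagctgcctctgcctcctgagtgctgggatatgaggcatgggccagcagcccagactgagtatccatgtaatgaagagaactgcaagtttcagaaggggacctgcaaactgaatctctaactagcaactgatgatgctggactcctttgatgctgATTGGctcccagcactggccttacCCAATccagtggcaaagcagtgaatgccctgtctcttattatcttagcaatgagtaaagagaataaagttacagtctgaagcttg
Psmb8: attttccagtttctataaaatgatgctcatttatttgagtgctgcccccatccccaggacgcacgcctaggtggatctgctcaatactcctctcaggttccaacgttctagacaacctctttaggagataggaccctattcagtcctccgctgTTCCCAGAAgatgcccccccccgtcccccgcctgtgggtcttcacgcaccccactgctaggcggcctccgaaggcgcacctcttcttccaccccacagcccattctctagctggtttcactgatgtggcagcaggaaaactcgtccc

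**Figure D2:**
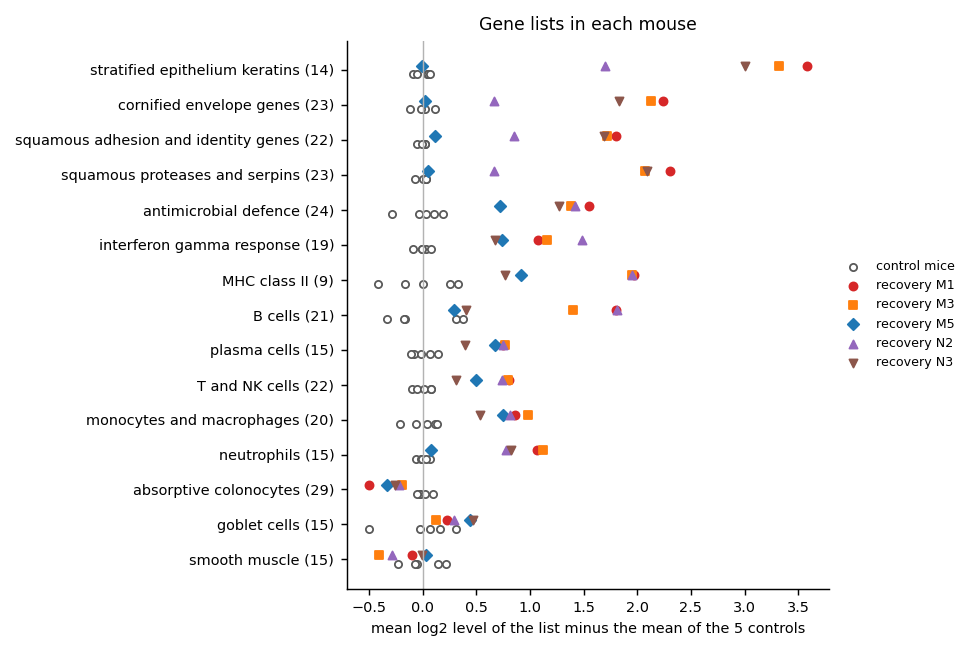
Mean log2 level of each gene list (members measured in parentheses) minus the mean of the 5 controls, with 1 point per mouse, open circles for controls and a separate symbol for each recovery mouse. Stratified keratins place M5 (list mean 5.54) on the control mean of 5.54 and M1 (9.13) farthest above it, while B cell genes place M5 (6.10) and N3 (6.21) near the controls (5.48 to 6.18) and N2 (7.62) farthest.

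B cell genes differed among the recovery mice. Of 21 measured members 12 were called higher, with a median of 1.11. Ms4a1, which encodes CD20, was at 4.79, 5.73, 4.94, 4.67 and 5.53 in controls and at 7.75, 7.17, 5.36, 7.89 and 5.42 after recovery. M1, M3 and N2 lay above every control whereas M5 and N3 lay within the control range (1.59 ± 0.46, adjusted p = 0.0255). Cd79a, the signalling chain of the B cell receptor, had M5 and N3 at 6.17 and 6.07, just above the highest control at 6.03, and the other recovery mice at 7.30 to 8.12 (1.92 ± 0.42, adjusted p = 0.00392). Cxcl13, the chemokine of B cell follicles, gave the same grouping, with M1, N2 and M3 at 10.56, 10.33 and 9.99 and N3 and M5 at 8.88 and 8.54, against 8.10 to 8.97 in controls (1.07 ± 0.33, adjusted p = 0.0318). The count of called B cell genes was 7 without M1 or without N2 and 16 without M5. In limma with the array set in the model 0 of the 21 were called, with Ms4a1 at 2.00 (adjusted p = 0.206), Cd79a at 1.70 (adjusted p = 0.252) and a list median of 1.21.

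Igha and Jchain, products of plasma cells, were above every control in all 5 mice. Igha, the heavy chain of IgA, was at 8.58, 7.74, 7.33, 7.36 and 7.38 in controls and 10.91, 10.83, 10.14, 11.35 and 10.21 after recovery (3.01 ± 0.34, adjusted p = 7.04e-06). M5 and N3 were again the lowest recovery mice. Jchain, which joins IgA into dimers, was at 8.65 to 9.60 in controls and 11.12, 11.18, 11.15, 11.25 and 10.23 after recovery, with N3 lowest (1.74 ± 0.22, adjusted p = 4.02e-05). Both were also called with the array set in the model (adjusted p = 0.00579 and 0.0153). Of the 15 plasma cell genes 5 were called, Jchain, Mzb1, Derl3 and the transcription factors Prdm1 and Irf4. Among named immunoglobulin gene segments and constant regions, 14 probe sets of 10 symbols were called higher, by 1.13 to 3.01, and 7 of them did not overlap the controls, against the 7.37% of all 1-symbol probe sets given above. Such near-identical genes can share probes, so their single values are uncertain. Probe set 10545237, listed as Adck1, was also among the largest rises (2.90), but that name comes from the platform annotation alone and the gene behind these values is uncertain.

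Gpnmb, a glycoprotein of lipid-laden macrophages, gave the smallest adjusted p of the rises, at 6.15, 6.10, 5.79, 5.80 and 5.92 in controls and 8.14, 8.10, 8.27, 7.87 and 8.04 after recovery. M5, low for B cell genes, was the highest mouse (2.13 ± 0.21, adjusted p = 3.08e-06, and 0.00579 with the array set in the model). Lyz2, macrophage lysozyme, was at 8.28 to 9.23 and 9.76 to 10.50 (1.46 ± 0.30, adjusted p = 0.00243). Of 20 monocyte and macrophage genes 6 were called higher, and of 22 T and NK cell genes 4, Cd3e, Cd3g, Cd4 and Icos. Over all 1-symbol probe sets 1.28% were called higher. Cd3e, part of the T cell receptor complex, was at 6.27 to 6.79 in controls and 7.91, 7.88, 7.44, 7.77 and 7.13 after recovery (1.03 ± 0.19, adjusted p = 0.000965). Of 24 cytokines and chemokines 4 were called, Il1a, Il1b, Il1f9 and Ccl8, but 1 without A1, A2, A5, M1 or M3 and 2 without L1, L2 or N2. Of 15 neutrophil genes 3 were called, 6 without M5, and the mean of that list was 6.62, 6.68, 5.63, 6.33 and 6.38 in the recovery mice against 5.49 to 5.62 in controls, so that M5 stood next to the controls.

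**Figure D3:**
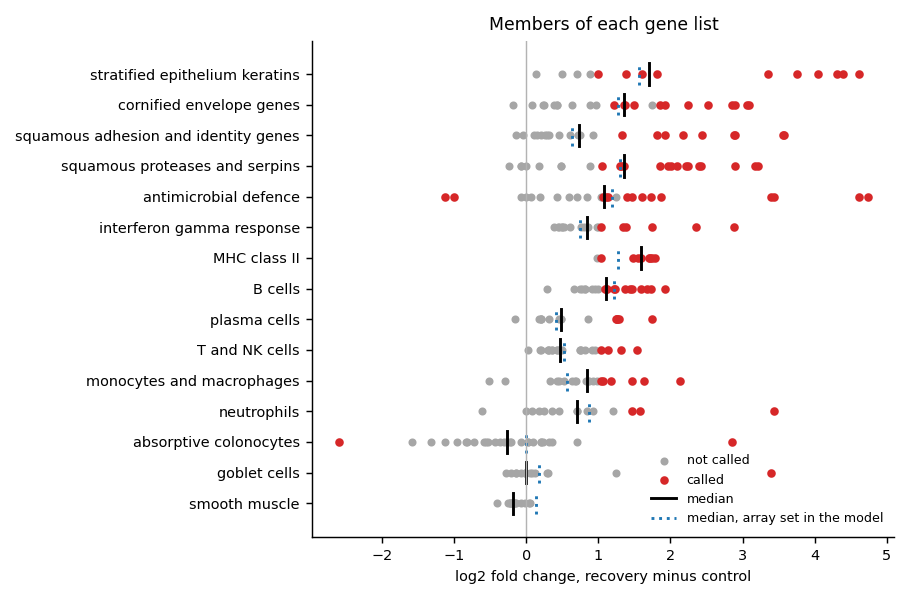
Log2 fold change of recovery against control for each member of each gene list, red where called and grey where not, with a black line at the list's median and a dotted blue line at its median with the array set in the model. The medians were 1.59 and 1.27 for MHC class II, 1.70 and 1.57 for stratified keratins and -0.27 and -0.01 for absorptive colonocytes.

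Genes of stratified squamous epithelium were the most uneven of the rises. Of 14 stratified keratins 10 were called higher, of 23 cornified envelope genes 12, of 22 squamous adhesion and identity genes 9, and of 23 squamous proteases and serpins 15. Krt5 was at 5.48 to 5.91 in controls and at 12.15, 11.80, 5.52, 10.19 and 11.90 after recovery, and Krt13 at 5.37 to 5.57 and 11.33, 11.07, 5.35, 8.94 and 10.90. M5 was thus at the level of the controls, and N2 lay between it and the other 3. The split differed from that of the B cell genes: N2, intermediate here, was the highest mouse for Ms4a1, and N3, high here, was at the level of the controls there. N2 was at 8.11 for Cnfn, an envelope protein of the surface layers, against 10.59 to 10.99 in M1, M3 and N3, and at 6.64 for Sprr3, a small proline-rich envelope protein, against 9.07 to 9.82.

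Some squamous genes were above the controls in M5 as well, 4 of the 14 keratins, 3 of the 23 envelope genes, 7 of the 22 adhesion genes and 9 of the 23 proteases and serpins. M5 lay below every control for 5, 10, 4 and 2 of these lists' genes. Over all 1-symbol probe sets M5 lay above every control for 24% and below for 24.9%. The genes described next were named because their groups did not overlap, which required M5 to lie above the controls. Krt6b, a keratin of activated squamous cells, was at 5.43 to 5.73 in controls and 11.04, 10.57, 5.80, 8.47 and 10.96 after recovery (3.75 ± 0.70, adjusted p = 0.00128). Dapl1, an epithelial differentiation gene, was at 4.87 to 5.04 and 9.96, 9.77, 5.36, 7.85 and 9.68 (3.58 ± 0.64, adjusted p = 0.000842). Tmprss11b, a transmembrane serine protease, was at 3.73 to 4.06 and 8.63, 8.03, 4.13, 6.18 and 8.38 (3.17 ± 0.57, adjusted p = 0.000923). In each of these M5 stood just above the highest control, below all other recovery mice. Sprr1a, a cross-linked envelope protein that is also induced in injured tissues, was at 7.06, 8.41, 7.47, 7.20 and 7.26 in controls and 11.49, 11.16, 8.64, 10.20 and 11.19 after recovery, so that M5 lay just above control A2 (3.06 ± 0.41, adjusted p = 5.44e-05). Trim29, a ubiquitin ligase of basal squamous cells, was at 5.26 to 5.66 and 9.52, 9.26, 5.84, 7.53 and 9.37 (2.88 ± 0.48, adjusted p = 0.000434). Sprr1a and Trim29 remained called with the array set in the model (adjusted p = 0.0235 and 0.0479), whereas Krt5 did not (4.52, adjusted p = 0.133). Without M5 the called members numbered 11 of the keratins, 14 of the envelope genes, 11 of the adhesion genes and 16 of the proteases and serpins. Such genes also mark the tissue of the anal margin, whose part in these values was not tested.

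The envelope promoters are shown for the same TATAAA core, which 12 of the 19 envelope genes with a promoter held (63.2%), against 13.6% of all promoters and 30.6% of those of the called higher genes. The element begins 43 bases before the start in Sprr1a (chr3:92485832-92486131, minus strand) and 33 bases before it in Sprr3 (chr3:92458671-92458970, minus strand), again with capitals for the core.
Sprr1a: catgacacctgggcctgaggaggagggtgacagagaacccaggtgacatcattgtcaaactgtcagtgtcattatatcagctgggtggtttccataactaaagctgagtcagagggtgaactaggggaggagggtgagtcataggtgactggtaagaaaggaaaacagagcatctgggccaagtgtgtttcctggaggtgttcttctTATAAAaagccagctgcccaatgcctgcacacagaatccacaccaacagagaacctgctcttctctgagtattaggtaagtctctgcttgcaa
Sprr3: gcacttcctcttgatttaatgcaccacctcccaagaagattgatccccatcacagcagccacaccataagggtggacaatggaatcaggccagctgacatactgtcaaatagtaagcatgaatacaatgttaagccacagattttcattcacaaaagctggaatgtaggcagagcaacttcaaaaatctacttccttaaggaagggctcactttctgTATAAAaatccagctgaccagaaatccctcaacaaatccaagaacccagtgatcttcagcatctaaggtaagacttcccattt

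Genes outside the squamous lists shared the gap of M5. Ppbp, a chemokine of platelets, was at 4.90 to 5.30 in controls and 11.67, 11.20, 5.12, 10.18 and 11.09 after recovery (4.80 ± 0.91, adjusted p = 0.00133). It was the only one of 6 platelet genes called, and the median of that list was 0.11. Ltf, the iron-binding lactoferrin of neutrophils and glandular secretions, was at 4.74 to 5.13 and 9.66, 9.63, 4.94, 8.23 and 9.09 (3.43 ± 0.71, adjusted p = 0.00259). Calcb, a neuropeptide, was at 5.10 to 5.65 and 8.78, 7.69, 5.66, 6.43 and 8.40 (1.99 ± 0.41, adjusted p = 0.00256), and it was the only one of 18 neuron and glia genes called. Arg1, which breaks down arginine, was at 4.97 to 5.22 and 9.23, 8.82, 5.04, 7.27 and 8.85 (2.76 ± 0.54, adjusted p = 0.00172). In each of these M1 was the highest, N2 the fourth and M5 the fifth.

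Epithelial repair genes gave 4 calls of 10, Anxa1, Clu, Emp1 and Cd44, but 1 without A1, 0 without M1 and 2 without A5, M3 or N3. Cd44, a hyaluronan receptor of crypt base and repairing cells, was at 7.81, 8.20, 7.97, 8.48 and 8.34 in controls and 9.39, 9.31, 8.79, 9.06 and 9.39 after recovery (1.02 ± 0.15, adjusted p = 0.000158, and 0.0235 with the array set in the model). Anxa1, a calcium-dependent membrane protein, had M5 within the control range at 9.06 and the other recovery mice at 9.69 to 10.65 (1.11 ± 0.23, adjusted p = 0.00233). Mfsd2a, a lipid transporter, did not follow the squamous split, at 5.75 to 6.36 and 8.17, 8.04, 7.92, 8.40 and 7.97 (2.00 ± 0.29, adjusted p = 0.000127). Of 17 collagens, 18 other matrix genes, 18 matrix proteases and inhibitors and 15 smooth muscle genes, 0 were called in either direction by limma. At adjusted p alone, with no demand on the fold, 7, 4, 3 and 0 of them were higher and 1, 1, 0 and 0 lower, where 7.08% of all 1-symbol probe sets were higher and 7.44% lower. The list mean of matrix proteases was 6.68 to 6.81 in controls and 7.16 to 7.31 after recovery. That of other matrix genes was 8.78 to 8.88 and 8.94 to 9.16, while those of collagens and smooth muscle overlapped. Mmp13 and Mmp3 rose by 1.34 and 1.16 but were not called. With these 2 groups alone, 2 matrix proteases were called higher.

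Among the 12 largest falls were 3 solute carriers of epithelial cells. Slc37a2, a sugar phosphate exchanger, was at 10.46, 8.93, 10.07, 8.74 and 8.96 in controls and at 6.88, 7.57, 6.48, 6.68 and 6.55 after recovery. The highest recovery value was 7.57 and the lowest control 8.74, and Slc37a2 fell by 2.60 on the log2 scale (SE 0.46, adjusted p = 0.000702). The phosphate transporter Slc20a1 went from 11.68, 10.37, 11.36, 10.21 and 10.69 to 9.16, 9.67, 8.99, 8.72 and 8.94 (-1.77 ± 0.25, adjusted p = 9.38e-05). Slc15a1, the peptide transporter PEPT1, went from 9.81 to 10.96 in controls to 8.69, 9.55, 8.53, 8.62 and 8.35 (-1.61 ± 0.37, adjusted p = 0.00570). M3 was the least reduced mouse for all 3, and A1 and A5 were the highest controls. Fxyd4, a regulator of the sodium pump, was at 8.79, 7.08, 8.30, 7.80 and 8.38 against 6.61, 6.68, 5.70, 6.22 and 6.34 (-1.76 ± 0.24, adjusted p = 5.94e-05), and it passed with the array set in the model too (adjusted p = 0.0313).

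**Figure D4:**
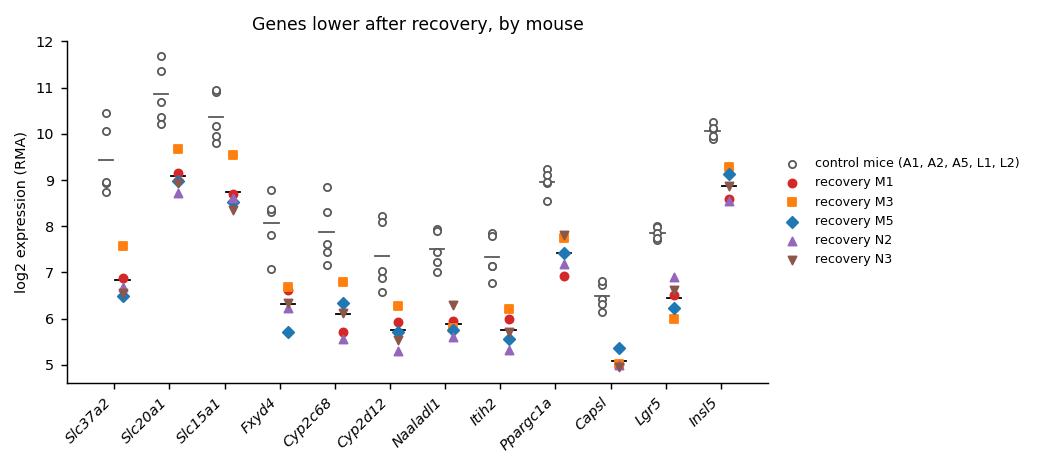
Log2 expression of genes that were lower after recovery, with 1 point per mouse, open circles for the 5 controls, a separate symbol for each recovery mouse and short lines for the group means. In each gene drawn the recovery mice lie below the controls. For Slc37a2, M3 reads 7.57 and the lowest control 8.74.

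Of the 52 probe sets called lower, 4 belonged to cytochrome P450 genes. The share of this family among all probe sets was not counted, so the 4 describe these genes and not the family. Cyp2c68, which oxidises fatty acids and drugs, was at 8.84, 7.45, 8.31, 7.16 and 7.61 in controls and 5.70, 6.80, 6.34, 5.56 and 6.12 after recovery (-1.77 ± 0.32, adjusted p = 0.000927). Cyp2d12 was at 6.58 to 8.23 against 5.30 to 6.28 (-1.61 ± 0.32, adjusted p = 0.00186), and Cyp2c67 and Cyp2d13 fell by 1.36 and 1.06. These genes have close paralogs, so that shared probes leave their single values uncertain. Of the 25 drug, steroid and fat metabolism genes 2 were called lower, the sulfotransferases Sult1c2 (-1.24) and Sult1a1 (-1.07), and 0 higher, with a median of -0.24, and the 2 became 1 without any 1 of 8 of the mice. The cytochrome P450 genes in that list, such as Cyp2c55 and Cyp3a13, were not called. Sult1a1 was at 9.30 to 9.49 in controls and 7.86, 8.29, 8.57, 8.03 and 8.69 after recovery (SE 0.35, adjusted p = 0.0409). Ppargc1a, the coactivator of mitochondrial genes, fell in both of its probe sets, by 1.54 (SE 0.26, adjusted p = 0.000570) and by 1.16 (SE 0.22, adjusted p = 0.00151).

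Most markers of colonocytes did not pass, but the mean of their list lay below the lowest control in all 5 recovery mice. Of the 29 absorptive colonocyte genes 1 was called higher, the calcium-activated chloride channel regulator Clca4b (2.85), and 1 lower, Slc37a2, with a median of -0.27. At adjusted p alone 8 of the 29 were lower and 2 higher, where 7.44% of all 1-symbol probe sets were lower and 7.08% higher. Car4, the carbonic anhydrase of the brush border, was at 12.66, 12.34, 12.69, 12.33 and 12.64 in controls and 11.58, 12.21, 11.85, 11.80 and 11.56 after recovery (-0.73 ± 0.20, adjusted p = 0.0190). Slc26a3, the chloride bicarbonate exchanger, was at 11.48 to 12.16 and 10.57 to 11.35 (-0.82 ± 0.23, adjusted p = 0.0198). Aqp8, a water channel, overlapped between the groups (-0.59 ± 0.35, adjusted p = 0.292). The median of the list was -0.01 with the array set in the model, and Car4 and Slc26a3 then gave adjusted p = 0.625 and 0.681. Of 15 goblet cell genes only Retnlb was called, and the list had a median of -0.01.

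Single markers of rarer epithelial cells were clearly apart. Lgr5, the receptor that marks crypt stem cells, was at 8.0, 7.70, 7.99, 7.86 and 7.74 in controls and 6.51, 6.00, 6.23, 6.90 and 6.63 after recovery (-1.40 ± 0.28, adjusted p = 0.00189, and 0.296 with the array set in the model). It was the only called member of 14 stem cell and proliferation genes, whose median was 0.03. Insl5, the hormone of L cells in the distal colon, was at 10.26, 9.88, 10.11, 9.95 and 10.12 against 8.58, 9.28, 9.14, 8.54 and 8.87 (-1.18 ± 0.33, adjusted p = 0.0180), the only one called of 14 enteroendocrine genes and not called without M1.

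The falls that follow were chosen after their values were seen, as were Arg1, Mfsd2a, Cyp2c67, Cyp2d13, the immunoglobulin genes and the list members beyond the leading 4 of each list above. Capsl, a calcyphosine-like calcium-binding protein, gave the smallest adjusted p of the falls that carry a gene symbol, at 6.43, 6.15, 6.73, 6.82 and 6.32 in controls and 5.02, 5.02, 5.37, 5.0 and 4.95 after recovery. It fell by 1.42 on the log2 scale (SE 0.12, adjusted p = 2.17e-07) and by 1.41 with the array set in the model (adjusted p = 0.00115). The position-specifying genes Hoxd10 and Hoxd11 both fell, Hoxd10 from 8.02 to 8.24 in controls to 7.18, 7.02, 6.26, 7.02 and 6.69 (-1.27 ± 0.31, adjusted p = 0.00847) and Hoxd11 from 7.80 to 7.90 to 7.20, 6.93, 6.24, 7.07 and 6.58 (-1.05 ± 0.30, adjusted p = 0.0211). M5, which was within the control range for Krt5, was the lowest mouse for both. Hmcn1, a basement membrane protein, was called in 6 of its probe sets, by -1.39 to -1.04. Cpm, a membrane carboxypeptidase, was at 8.96 to 9.89 in controls and within 7.88 to 8.07 in all 5 recovery mice (-1.40 ± 0.21, adjusted p = 0.000194). The 7 genes called lower also with the array set in the model were Capsl, Fxyd4, Itih2, Cyp2c67, Ttll6, 2310079G19Rik and 2010106E10Rik.

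One microRNA gene was among the falls. Mirlet7a-1, a precursor of let-7a, was at 5.86, 5.77, 6.11, 5.94 and 6.02 in controls and 5.01, 4.83, 4.77, 4.48 and 4.91 after recovery (-1.14 ± 0.15, adjusted p = 6.45e-05). The difference was -0.49 with the array set in the model (adjusted p = 0.139). The probe set measures RNA from the gene and not the mature product, which other let-7 genes also make. The mature sequences of the gene are shown to identify it, from RefSeq, 5′ to 3′, with the seed (bases 2 to 8) in capitals. On GRCm38.p6 the 5p arm lies at chr13:48538239-48538260 and the 3p arm at chr13:48538188-48538209, both on the minus strand.
mmu-let-7a-5p: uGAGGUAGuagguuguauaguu
mmu-let-7a-1-3p: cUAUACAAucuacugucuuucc

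Most of the 200 probe sets called lower had no gene. Of them 145 (72.5%) carried no symbol, against 34.1% of all probe sets and 17.5% (67) of those called higher. These 145 were dim, with a median level of 5.66 over the 29 arrays, and 112 of them (77.2%) lay at or under the median probe set. With the array set in the model 0 of the 145 were called by limma, where 2143 of all probe sets were lower at an unadjusted p under 0.05, although 142 kept their sign. Of the 52 with 1 symbol 7 were called with it, and of the 279 higher ones 33.

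The recovery mice were also set beside the mice examined without the additional recovery. The comparisons share the recovery mice, and those with controls share the controls. The 279 probe sets higher than in controls had a median of 1.38 above the controls, of 0.02 above the 2 cycles mice and of 0.06 above the 3 cycles mice, which themselves stood 1.22 and 1.20 above the controls. The 52 lower ones had a median of -1.21 against the controls, -0.42 against 2 cycles and 0.04 against 3 cycles. For Slc15a1 the group means ± SD were 10.36 ± 0.54 in controls, 9.70 ± 0.44 after 2 cycles, 9.19 ± 0.69 after 3 cycles and 8.75 ± 0.47 after recovery. For Reg3b they were 4.61 ± 0.21, 8.25 ± 0.88, 9.44 ± 0.84 and 9.23 ± 0.93. Neither passed the test between recovery and 2 cycles (-0.95, adjusted p = 0.441 for Slc15a1, and 0.98, adjusted p = 0.780 for Reg3b), with 95% intervals of -1.71 to -0.19 and -0.64 to 2.61.

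**Figure D5:**
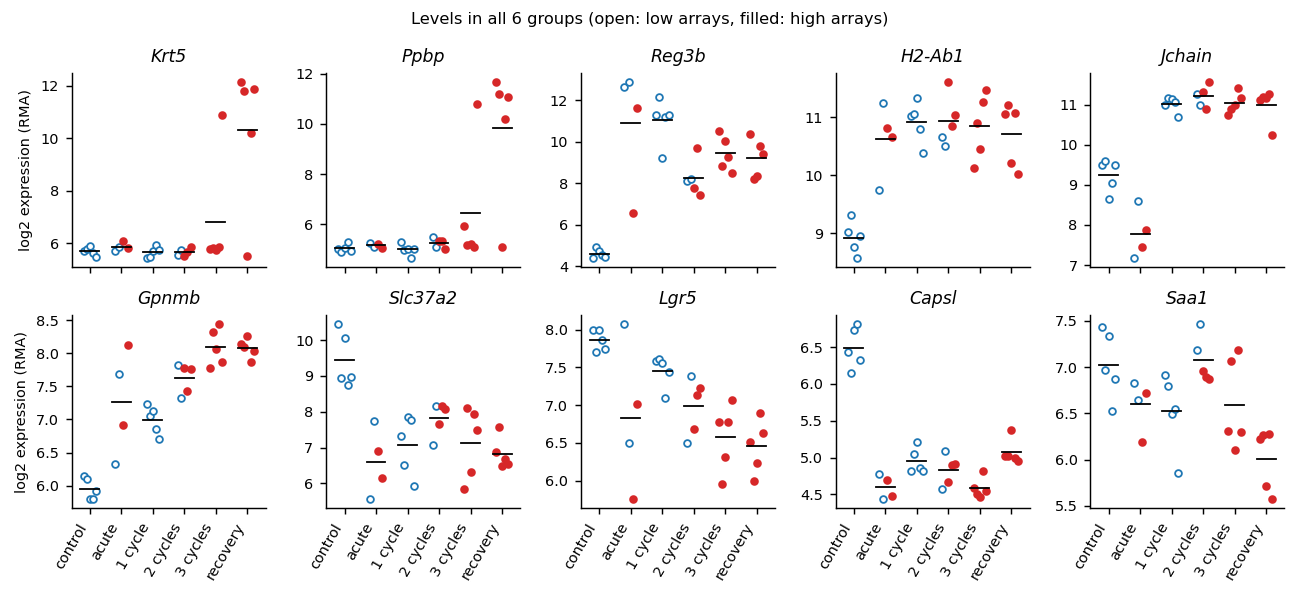
Log2 expression in the 6 groups of the series for 10 genes, with 1 point per mouse, open for the low and filled for the high arrays, and a line at each group mean. Reg3b means were 8.25 after 2 cycles, 9.44 after 3 cycles and 9.23 after recovery against 4.61 in controls, and Krt5 means were 5.66 after 2 cycles and 10.31 after recovery. After 3 cycles, mouse G3 read 10.91 for Krt5 and the other mice of that group 5.75 to 5.85.

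In that comparison 54 probe sets were called higher than after 2 cycles (0.152% of those tested) and 3 lower (0.00845%). Of the 279 that were higher than in controls, 46 were also higher than after 2 cycles, and 7 keratins, 11 envelope genes, 6 adhesion genes and 11 proteases and serpins were called in that comparison. In limma no member of the antimicrobial, class II or B cell lists was called higher than after 2 cycles, and the medians of these lists were -0.02, -0.18 and -0.26. Cd44 was higher than after 2 cycles by less than 2-fold (0.71, adjusted p = 0.0458) and Saa1 lower (-1.06, adjusted p = 0.0345), and Saa1 was the only one of the 52 that was. The 2 cycles mice lay in both array sets. Within the high arrays, 5 recovery and 3 2-cycles mice, limma called 0 in either direction, with 1211 higher and 993 lower at an unadjusted p under 0.05, while Krt5 differed by 4.64 there. Against 3 cycles, whose 5 arrays were all high, 0 were called higher and 0 lower (0% each), with 998 higher and 1554 lower at an unadjusted p under 0.05. In the 3 cycles group mouse G3 read 10.91 for Krt5 and 10.79 for Ppbp. The other mice of that group read 5.75 to 5.85 for Krt5 and 5.11 to 5.94 for Ppbp. Leaving out M1, M3 or N3 took the 54 to 0, 1 and 0, and leaving out M5 raised it to 97.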

How the data were processed

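Colonic RNA of each mouse was hybridised to 1 Affymetrix Mouse Gene 1.0 ST array. The authors deposited log2 values after RMA (background correction, quantile normalization and probe summary), with R 2.12.2 named in the submitters' processing notes. All 35511 probe sets and 29 arrays were used, and 0 columns were left out. By the platform annotation 21789 probe sets carried 1 gene symbol, 1621 several and 12101 none; the Entrez IDs of 21698 were found in RefSeq.

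The 6 groups were fitted together with limma 3.58.1 in R 4.3.3, and p-values were adjusted for all probe sets by the Benjamini-Hochberg method. The fit was tested on simulated data. A call needed adjusted p under 0.05 and a change over 2-fold. Of 612 entries in 35 gene lists 559 were measured. The members and lists were chosen with earlier results of these data known. Named genes were the 12 largest rises and falls that did not overlap between the groups, up to 4 leading members of each list, those that define a list, and genes the study names for the recovery mice; others are named as chosen later. No set tests were run.

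Alternatives were the array set as a term, each mouse left out, these 2 groups alone, array weights, centring, a second quantile normalization, a trended prior, the title letter as a block, and filters on dim or unnamed probe sets. The labels pair no recovery mouse with a control. The SEs and p-values measure only the spread between mice within groups, pooled over the 6 groups fitted together.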

Additional observations from a re-analysis of the deposited data

Results flagged for a closer look

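Of 300 groups of 5 mice examined over the named genes, 14 held 1 mouse far from the other 4, and chance flags about 1 in 20 groups. Among the recovery mice, M5 was lowest for Ppbp at 5.12 (the others 10.18 to 11.67), for the neutrophil chemokine Cxcl5 at 4.82 (6.31 to 6.75) and for its receptor Cxcr2 at 4.20 (5.11 to 5.38). N3 was lowest for the plasma cell genes Jchain at 10.23 (11.12 to 11.25) and Derl3 at 6.98 (7.85 to 8.08), and highest for the bile acid transporter Slc10a2 at 5.51 (4.63 to 4.81). M3 was lowest for Retnlb at 8.59 (9.64 to 9.95) and highest for Slc15a1 at 9.55 (8.35 to 8.69). M1 was highest for the endothelial junction gene Cldn5 at 7.70 (7.31 to 7.42).

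Among the controls, A1 was highest for the clock repressor Ciart at 7.92 (5.32 to 5.58) and lowest for another clock gene, Nfil3, at 5.16 (6.05 to 6.27) and for the matrix protease Mmp3 at 4.78 (5.13 to 5.27). L2 was highest for the probe set listed as Adck1, whose gene is uncertain, at 5.67 (4.41 to 4.75) and for the trypsin gene Prss2 at 5.61 (5.30 to 5.37).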

How the results depend on the processing

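The count of probe sets called higher than in controls (382) was 308 to 442 with 1 mouse left out, 71 with the array set as a term and 2149 at adjusted p alone. The count called lower (200) was 133 to 255, lowest without A1, and 53 over probe sets with 1 symbol, 10 with the array set, 80 without dim probe sets and 2346 at adjusted p alone. Against 2 cycles the 54 became 11 with the array set, 18 without dim probe sets, 0 with only the groups compared (1793 higher at an unadjusted p under 0.05) and 0 within the high arrays, a setting chosen after seeing the data, and 0 to 97 with 1 mouse left out. The 3 lower became 1, 0 (groups compared only), 5 (title letter block), 0 within the high arrays, and 0 to 5. Against 3 cycles the 0 higher became 18 with 1 symbol only, 10 with array weights, 4 with centring, 4 with a second quantile normalization, 24 with the letter block and 0 to 76 with 1 mouse left out (76 without M5, 28 without N2); the 0 lower became 1 with the letter block and 0 to 3.

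With the array set, the called members were 0 keratins, 1 envelope gene, 2 antimicrobial, 0 interferon, 0 class II, 0 B cell, 3 plasma cell and 0 higher colonocyte genes. Without dim probe sets, 5 keratins and 6 envelope genes were called. That filter took members out of the test, and of the 63 called named genes that stayed 0 lost the call. B cell genes ranged from 7 to 16 with 1 mouse left out. Medians that changed sign were mast cells (-0.24 without dim probe sets), and with the array set platelets (-0.01), goblet cells (0.18), stem cells (-0.23), metabolism (0.08) and skeletal muscle (-0.08). Goblet cells also read 0.01 with array weights, 0.04 with a second quantile normalization and -0.03 to 0.06 with 1 mouse left out, and stem cells -0.06 to 0.09 with 1 mouse left out. Of 82 called genes among 150 named, 70 lost the call with the array set and 0 to 13 with 1 mouse left out. Beyond the removal of dim probe sets from the test, the cause of these changes was not tested. No paired analysis was possible because the labels pair no recovery mouse with a control. The title letter gave a correlation of -0.068. Low signal limits 112 of the 145 unnamed probe sets called lower.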

Other observations

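The circadian clock genes set control A1 apart from the other mice. The mean of the 17 measured genes was 8.19 in A1 against 7.36 to 7.55 in the other controls and 7.33 to 7.62 in the recovery mice. A1 was also the lowest control for Retnlb at 3.52 and for Ang4, an antimicrobial ribonuclease of goblet and Paneth cells, at 5.24, where the other controls read 7.43 to 9.06. Without A1 the change of Retnlb after recovery was 2.74 (limma adjusted p = 0.00999) in place of 3.40.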
